A study of Homo sapiens with 4 samples.

Results

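Mmp3, Mmp8, Mmp10, Mmp12 and Mmp13 are 5 matrix metalloprotease genes that lie close together near the start of mouse chromosome 9. They were chosen by name, and make up 5 of the 23698 loci in each deposited table. Each of the 5 symbols matched 1 locus. RNA was sequenced from tumours that had grown under the skin of Balb/c nude mice, which lack a thymus and with it most T cells, after grafting of MDA-MB-231 cells. MDA-MB-231 is a line of human breast cancer without hormone receptors. In 2 groups the grafted cells were caspase-3 efficient, and in the other 2 they had been kept in culture with the peptide inhibitor Z-DEVD-FMK before they were grafted. One group of each kind had no treatment, and the other received docetaxel, a taxane that stabilises microtubules, at 15 mg/kg when tumours measured 12 mm². Each of the 4 groups was 1 library, and the number of tumours behind a library is not given in the labels. The labels name the organism as human, but the tables list mouse genes of build mm9. The values therefore belong to the host tissue within and around the graft, together with any human fragments that aligned to the mouse genome. Caspase-3 inhibition applied to the grafted human cells in culture, and no label describes it in the host.

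Matrix metalloproteases are zinc-dependent enzymes that are made as inactive precursors and cut proteins of the extracellular matrix. They are grouped by what they cut, as collagenases, stromelysins and elastases among others, and tissue inhibitors (the Timp proteins) hold them in check. In tumours many of them are made by stromal fibroblasts and by infiltrating leukocytes, and they take part in matrix turnover, invasion and the release of stored growth factors.

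All values below are FPKM (fragment counts scaled to the length of the transcript and to the mapped fragments of the library). Levels of different genes are set side by side as listed, and how fully each gene was captured is not known. Values in parentheses after an FPKM are the lower and upper confidence bounds deposited with it, which cover counting and assignment of fragments within a library and not differences between animals. With 1 library per group no test between conditions was possible, no p-value is given, and every difference describes these libraries. A locus was compared where both libraries gave it the status OK and at least 1 of them put it at 5 FPKM. It was called higher or lower where the difference was 2-fold or more on the scale log2(FPKM + 1) and the deposited bounds were apart. Ratios of low values between libraries put the depth of the efficient docetaxel, inhibited untreated and inhibited docetaxel libraries at 1.32, 0.891 and 0.667 times that of the efficient untreated library, and 7.77% to 11.7% of loci were above 0 in a library. The tables are sparse: Actb, a cytoskeletal actin gene that every cell uses, was listed at 0 in all 4 libraries, so a listed 0 gives no level. Low values above 0 may be incomplete too. Col1a2 was at 369 to 579 FPKM, while Col1a1, the gene of the other chain of the same collagen, was at 0.334 FPKM or less. Loci with values were crowded near chromosome starts: of 1345 loci starting in the first 10 Mb of a chromosome 363 had a value above 0 in 3 or 4 libraries, and of 22353 further along 1233 did (5.52%). The reason was not tested. The cluster lies in a stretch where values were frequent. From the start of chromosome 9 to 500 kb past the cluster, 18 of 32 loci (56.3%) had a value above 0 in 3 or 4 libraries, against 1 of 41 loci (2.44%) in the next 10 Mb and 6.73% of all loci.

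The cluster of metalloprotease genes spanned 427 kb (mm9 chromosome 9, 7272514 to 7699416) and held 10 loci, all of them metalloprotease genes. In order along the chromosome the 5 described genes were Mmp13 (7272514 to 7283333), Mmp12 (7347374 to 7360461), Mmp3 (7445822 to 7455974), Mmp10 (7502360 to 7510240) and Mmp8 (7558429 to 7568486), which together spanned 296 kb. Each of these 5 was above 0 in all 4 libraries. Of the other 5 loci, Mmp27 was at 2.74 FPKM (0 to 6.01) in the efficient untreated library, 7.40 (2.69 to 11.7) in the efficient docetaxel library, 1.54 (0 to 4.05) in the inhibited untreated library, and listed at 0 in the inhibited docetaxel library. Mmp1a and Mmp1b, the mouse counterparts of the human interstitial collagenase gene, the enamel protease gene Mmp20 and the matrilysin gene Mmp7 were listed at 0 in all 4 libraries. Genes with values and genes listed at 0 were thus interspersed along the cluster, and each gene listed at 0 in every library had a neighbour with a value above 0 within the cluster or on its flank.

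**Figure D1:**
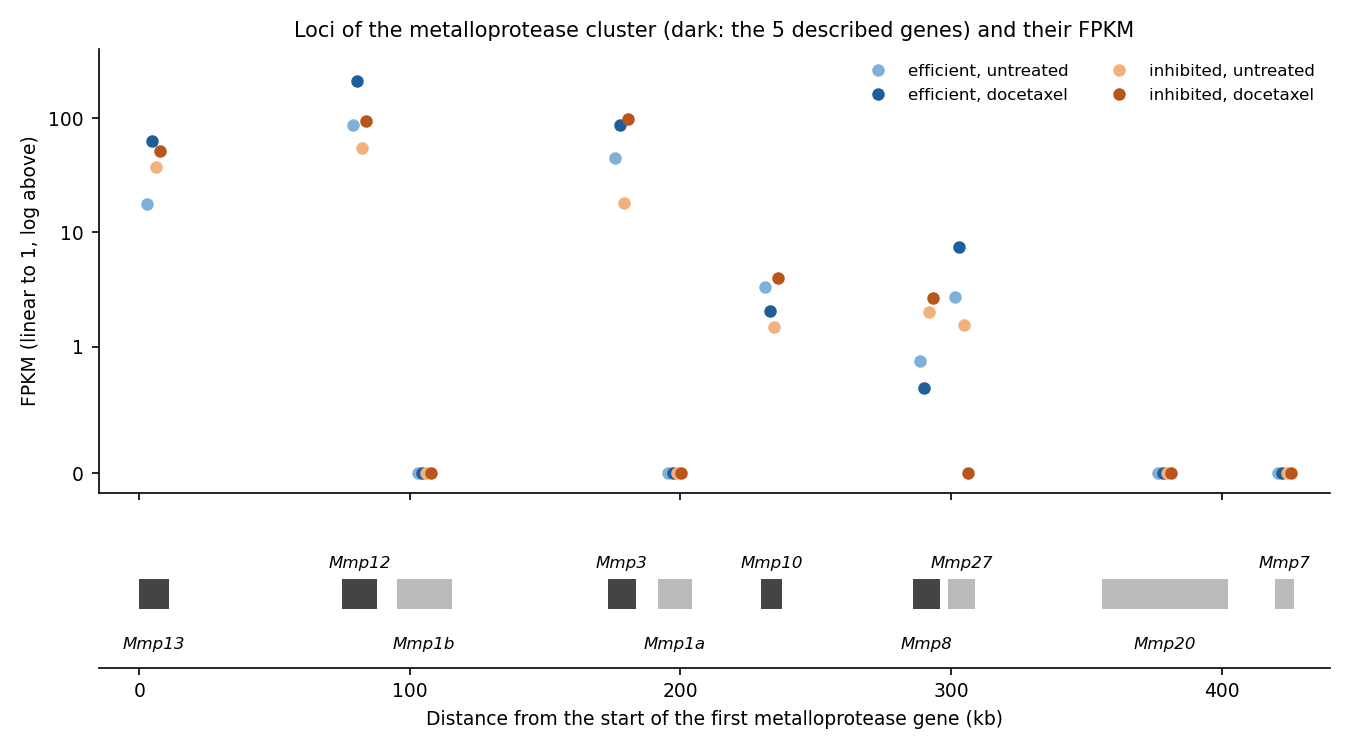
FPKM of the 10 loci of the metalloprotease cluster (vertical axis, linear to 1 and logarithmic above) against distance from the start of the first gene in kb, with 1 point per library and gene bodies drawn to scale below, dark for the 5 described genes. Mmp13, Mmp12 and Mmp3 stand between 17.7 and 210.4 FPKM, Mmp10, Mmp8 and Mmp27 stand at 7.40 or less, and the other 4 loci are listed at 0 throughout.

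The elastase gene Mmp12, which encodes an enzyme made mainly by macrophages that degrades elastin, had the highest level of the 5 genes in 3 of the 4 libraries. It was at 87.8 FPKM (71.8 to 103) in the efficient untreated library, 210.4 (181 to 229.7) in the efficient docetaxel library, 55.2 (42.8 to 67.0) in the inhibited untreated library and 94.8 (75.4 to 113) in the inhibited docetaxel library. The efficient docetaxel library stood above the other 3 with no overlap of bounds. Mmp12 was also the most precisely measured of the 5, with a mean distance of its bounds from the level of 11.6% to 21.9%.

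The stromelysin gene Mmp3 encodes an enzyme that cuts proteoglycans, laminin and fibronectin and activates the precursors of other metalloproteases. Its level was 44.3 FPKM (28.8 to 59.8) in the efficient untreated library, 86.3 (62.0 to 103) in the efficient docetaxel library, 18.2 (8.70 to 27.3) in the inhibited untreated library and 97.3 (68.1 to 126) in the inhibited docetaxel library. Both docetaxel libraries were high and their bounds overlapped, while the inhibited untreated library was the lowest and its bounds overlapped none of the others. Mmp10, the gene of the second stromelysin, was at 3.29 (0 to 6.97), 2.03 (0 to 4.34), 1.48 (0 to 3.91) and 3.95 (0 to 8.72) FPKM in the same order of libraries, and all 4 of its intervals overlapped. The coding sequences of these stromelysin genes are alike, and the labels do not say how fragments matching both were divided.

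The collagenase gene Mmp13, whose enzyme opens the triple helix of fibrillar collagens, was at 17.7 FPKM (10.4 to 24.6) in the efficient untreated library, 62.5 (47.8 to 75.6) in the efficient docetaxel library, 37.1 (25.1 to 48.5) in the inhibited untreated library and 52.0 (35.7 to 68.1) in the inhibited docetaxel library. The efficient untreated library was low, and its bounds overlapped none of the other 3. Mmp8, the collagenase gene best known from neutrophil granules, was at 0.885 (0 to 2.44), 0.675 (0 to 1.82), 1.99 (0 to 4.56) and 2.66 (0 to 6.09) FPKM in the same order of libraries. Its intervals all overlapped and all reached 0.

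The values of Mmp8 and Mmp10 rest on very few fragments. Multiplied by the relative depth of its library, the FPKM of Mmp8 came out at 1, 1, 2 and 2 times its lowest value, each within 0.1 of a whole number, in the order efficient untreated, efficient docetaxel, inhibited untreated and inhibited docetaxel. If 1 such step is 1 fragment, 3 fragments on Mmp8 correspond to 2.66, 2.01, 2.98 and 3.98 FPKM in these libraries, and no value of Mmp8 exceeded that level. Mmp10 came out at 5, 4, 2 and 4 steps within the same tolerance, with a step of its lowest value divided by 2. The divisor was the first whole number, from 1 to 4, that fitted. The values of Mmp27 gave no whole steps with any of these divisors. Neither gene reached 5 FPKM in any library, so 3 of the 5 genes, Mmp3, Mmp12 and Mmp13, entered the comparisons, and a difference of Mmp8 or Mmp10 between conditions was not detectable at this depth.

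**Figure D2:**
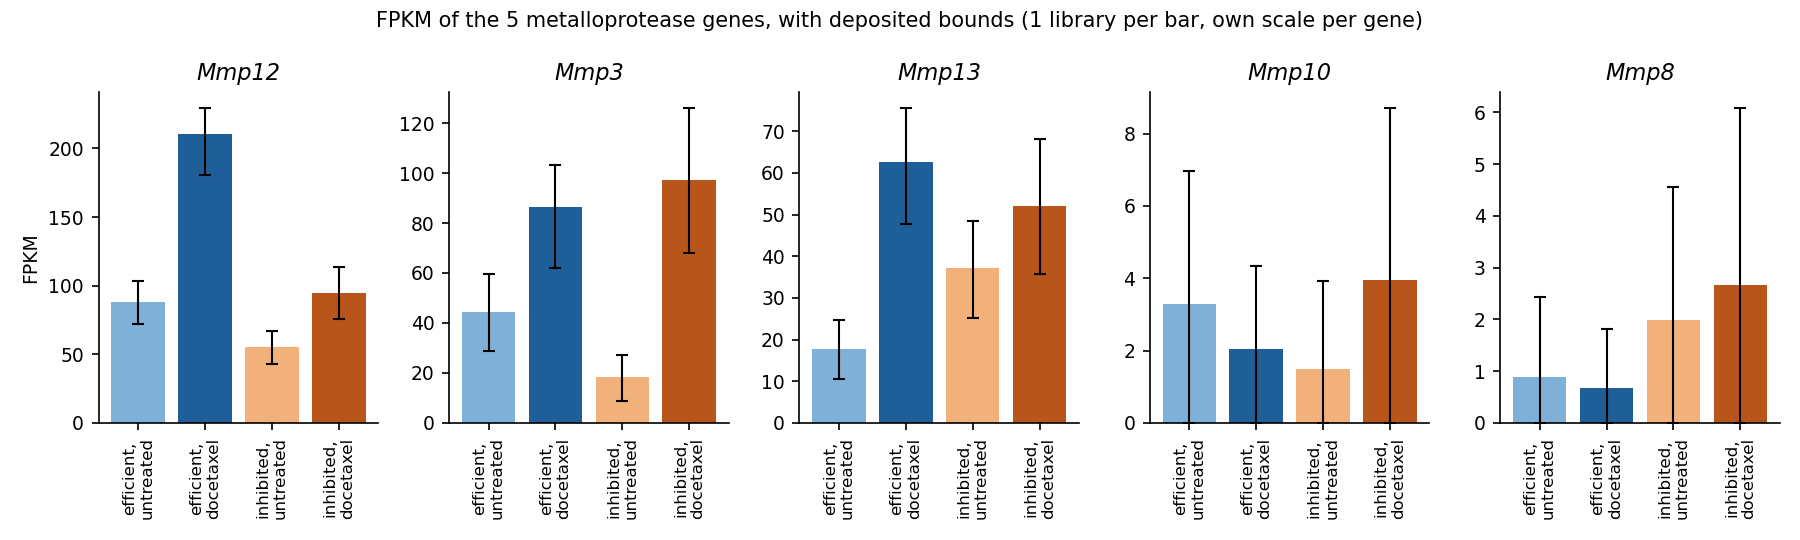
FPKM of each of the 5 genes (vertical axis from 0, own scale per gene) in the 4 libraries, 1 bar per library, with the deposited confidence bounds as error bars. Mmp12 is highest in the efficient docetaxel library at 210.4 FPKM, Mmp3 is lowest in the inhibited untreated library at 18.2, Mmp13 is lowest in the efficient untreated library at 17.7, and the bounds of Mmp10 and Mmp8 reach 0 in every library.

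Within a library the order of the levels differed between conditions. In the efficient untreated library Mmp12 stood above Mmp3, Mmp3 above Mmp13 and Mmp13 above Mmp10, each without overlap of bounds. In the efficient docetaxel library the order was the same, but the bounds of Mmp3 and Mmp13 overlapped. In the inhibited untreated library Mmp13 came before Mmp3, and the bounds of Mmp12 and Mmp13 and those of Mmp13 and Mmp3 overlapped. In the inhibited docetaxel library Mmp3 and Mmp12 were level (97.3 and 94.8 FPKM) with overlapping bounds, and both had a higher FPKM than Mmp13, the bounds of Mmp12 and Mmp13 being apart. Mmp10 and Mmp8 overlapped each other in all 4 libraries.

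Docetaxel was compared with no treatment first in caspase-3 efficient grafts. Mmp13 was 3.53 times as high in FPKM (a difference of 1.76 on the log2(FPKM + 1) scale, with the bounds allowing 0.93 to 2.75) and Mmp12 was 2.40 times as high (1.25, with the bounds allowing 0.80 to 1.66). Both were called higher, and 8.10% of the 667 loci compared were called higher. None of the 3 genes compared was called lower, against 0.900% of these loci. The bounds of Mmp3 were apart as well, but its difference of 0.95 (1.95 times in FPKM) stayed under the 2-fold threshold. Mmp10 and Mmp8 differed by -0.50 and -0.17, values that rest on the few steps given above. Over all 5 genes, with Mmp10 and Mmp8 that did not enter the comparison, the median difference was 0.95. Of the 3 genes compared Mmp12 had the middle value, 1.25, and over the 667 loci the median was 0.34.

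Other genes around the cluster were also higher in the efficient docetaxel library. Of the 10 loci compared within 10 Mb outside the cluster, 10 had a higher value with docetaxel, with a median difference of 0.93. Birc2 alone was called higher. Aasdhppt, Casp12, Pdgfd and Birc2 reached 5 FPKM in the docetaxel library alone, so the rule for comparing loci fixed their direction in advance. They were at 5.11, 12.6, 6.74 and 6.69 against 2.24, 4.97, 1.25 and 1.36 FPKM. The other loci, at 5 FPKM or more in both libraries, differed by 0.07 to 1.02. Casp1 and Casp4, genes of inflammatory caspases, were at 62.4 against 45.6 and 47.8 against 24.3 FPKM, and Dcun1d5, the next gene beyond Mmp13, was at 129.7 against 85.8. When libraries were scaled to the median of these neighbours and Mmp27, the difference of Mmp13 was 0.66 and that of Mmp12 0.13. That of Mmp3 was -0.16, a change of sign, and none was called. The scaling factor was 2.19, and Mmp27 (7.40 against 2.74 FPKM) also entered through the docetaxel library alone. Loci that entered in this way raise the factor by construction, and their part in the lost calls was not tested. Scaled to the median of well-measured loci of all chromosomes, or after quantile normalization, Mmp13 kept its call and Mmp12, at 0.96 and 0.76, fell under the 2-fold threshold.

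The same question was asked where caspase-3 had been inhibited. Mmp3 was 5.34 times as high with docetaxel as without (2.36 on the log2 scale, with the bounds allowing 1.29 to 3.71) and was called higher, as were 3.81% of the 630 loci compared. None of the 3 genes compared was called lower, against 1.75% of these loci. Mmp12 was 1.72 times as high (0.77) with bounds apart, under the 2-fold threshold, and Mmp13 was 1.40 times as high (0.48) with overlapping bounds. Mmp10 and Mmp8 differed by 1.00 and 0.29. The median over all 5 genes was 0.77, and over the loci compared it was 0.37. Here 4 of the 7 neighbouring loci compared had a higher value with docetaxel, with a median difference of 0.17, and none was called. 8430410K20Rik and Yap1 reached 5 FPKM only without docetaxel (5.29 and 5.14 FPKM), so the rule fixed their lower value in advance. Mmp3 was called under each of the scalings tried, that to the neighbours included.

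Inhibited and efficient grafts were then compared without treatment. Mmp13 was 2.09 times as high in the inhibited library (1.02 on the log2 scale, with the bounds allowing 0.03 to 2.11) and was called higher, against 2.51% of the 597 loci compared. Mmp3 was at 0.411 times its level in the efficient library (-1.24, with the bounds allowing -2.65 to -0.07) and was called lower, against 3.35% of these loci. Both calls lay near the limit of the rule, since the intervals of the libraries were apart by little: 25.1 against 24.6 FPKM for the facing bounds of Mmp13 and 27.3 against 28.8 for those of Mmp3. With a pseudocount of 5 Mmp13, at 0.89, was not called, and after scaling to the neighbours Mmp3, at -1.10, was not called because its bounds overlapped. Mmp12 was lower by value (-0.66) with bounds apart and was not called, while Mmp10 and Mmp8 were at -0.79 and 0.66. The median over all 5 genes was -0.66, against -0.09 over the loci compared and -0.12 over the 8 neighbours, of which Tmem123, the first gene beyond Mmp7, was called lower (5.03 against 14.9 FPKM).

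Under docetaxel, Mmp12 was at 0.450 times its efficient level in the inhibited library (-1.14 on the log2 scale, with the bounds allowing -1.59 to -0.67) and was called lower, as were 9.27% of the 701 loci compared. None of the 3 genes compared was called higher, against 3.99% of these loci. Mmp13 (-0.26) and Mmp3 (0.17) had overlapping bounds and were not called. Mmp10 and Mmp8 were at 0.71 and 1.13, on the few steps given above. With them the median over all 5 genes was 0.17, and over the 3 genes compared it was -0.26, against -0.05 over the loci compared. The neighbours had a median difference of -0.77 over 10 loci. Of these, 2 were called lower, Pdgfd (a listed 0 against 6.74 FPKM) and Birc2 (1.02 against 6.69). Pdgfd, Birc2, Cwf19l2, Aasdhppt and 8430410K20Rik reached 5 FPKM in the efficient docetaxel library alone, so the rule fixed their lower value in advance. Scaled to the 9 neighbours above 0 in both libraries, the difference of Mmp12 was -0.38 and was not called, and that of Mmp13 turned to 0.495. Loci that entered through 1 library alone lower this factor, 0.587, by construction. After quantile normalization Mmp12 was at -0.98, just under the threshold. Mmp27 was also called lower here. For Mmp27 and Pdgfd the call was against a listed 0, so the difference in level is not known. This comparison shares the efficient docetaxel library with the first and the inhibited docetaxel library with the second. The comparison without treatment shares the untreated libraries with them in the same way. Values of the comparisons are therefore not independent. Both calls of Mmp13 use its value in the efficient untreated library, and both calls of Mmp3 use its value in the inhibited untreated library. Both calls of Mmp12 use its value in the efficient docetaxel library.

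**Figure D3:**
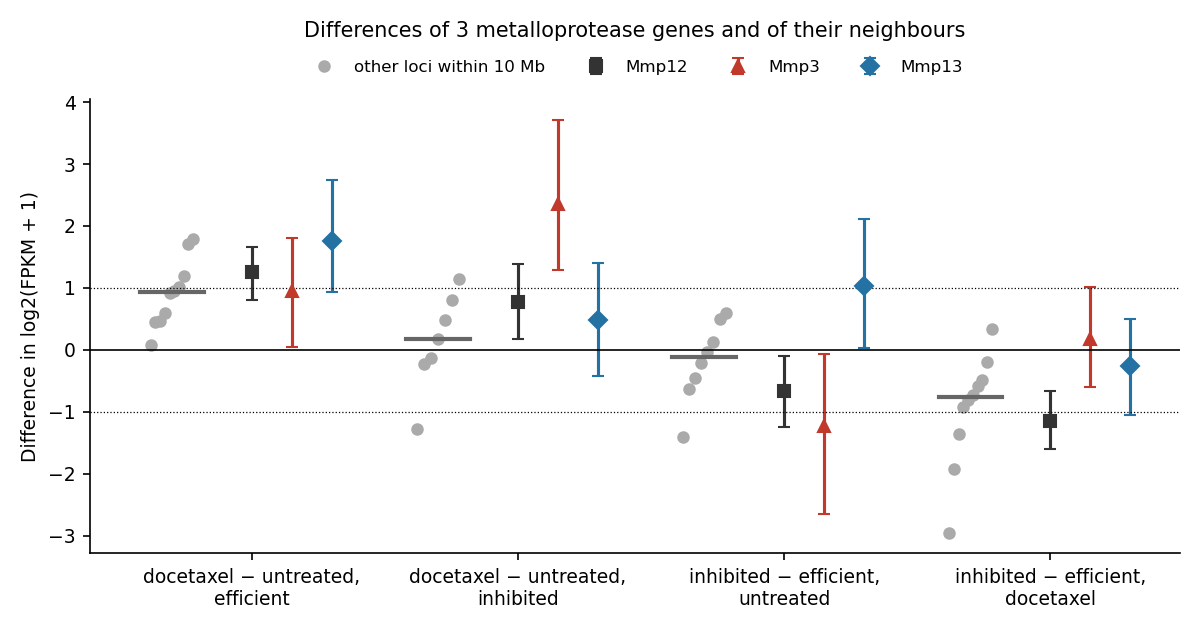
Differences in log2(FPKM + 1) in the 4 comparisons for Mmp12, Mmp3 and Mmp13, with bars spanning what the deposited bounds allow, beside the other loci compared within 10 Mb (grey points, with a grey line at their median); dotted lines mark the 2-fold threshold. In efficient grafts the docetaxel differences of the 3 genes (0.95 to 1.76) lie at or above the neighbours' median of 0.93. In inhibited grafts Mmp3 lies at 2.36 above neighbours with a median of 0.17. Some neighbours reached 5 FPKM in only 1 library of a comparison, which fixed their direction in advance.

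Ratios between genes of 1 library do not change when that library is multiplied by 1 factor. Quantile normalization can change them, and they rest on levels as listed. Between some of these libraries their ranges were apart, and between others they overlapped. How often ratios of other gene pairs differ as much was not examined. The ratio of Mmp3 to Mmp13 was 2.50 in the efficient untreated library (with the bounds allowing 1.17 to 5.73), 1.38 in the efficient docetaxel library (0.820 to 2.16), 0.491 in the inhibited untreated library (0.179 to 1.09) and 1.87 in the inhibited docetaxel library (0.999 to 3.53). Mmp3 thus had the higher level in 3 libraries and Mmp13 in the inhibited untreated one. Between the untreated libraries this ratio differed 5.09-fold, and its ranges did not overlap. The ratio of Mmp12 to Mmp13 was 4.95 (2.92 to 9.91), 3.36 (2.39 to 4.80), 1.49 (0.882 to 2.67) and 1.82 (1.11 to 3.18) in the same order, again without overlap between the untreated libraries.

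The ratio of Mmp12 to Mmp3 was 1.98 (1.20 to 3.59), 2.44 (1.75 to 3.71), 3.03 (1.57 to 7.70) and 0.975 (0.598 to 1.67) in the same order of libraries. The inhibited docetaxel library was the low one, and its range lay apart from that of the efficient docetaxel library. None of the 3 ratios differed between docetaxel and no treatment without overlap of ranges, in efficient or in inhibited grafts. As a share of the summed FPKM of the 5 genes, Mmp12 made up 57.0%, 58.1%, 48.4% and 37.8%, Mmp3 28.8%, 23.8%, 16.0% and 38.8%, and Mmp13 11.5%, 17.3%, 32.6% and 20.7%. The sums themselves were 154, 362, 114 and 251 FPKM, so both docetaxel libraries had a higher sum than both untreated ones as deposited.

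**Figure D4:**
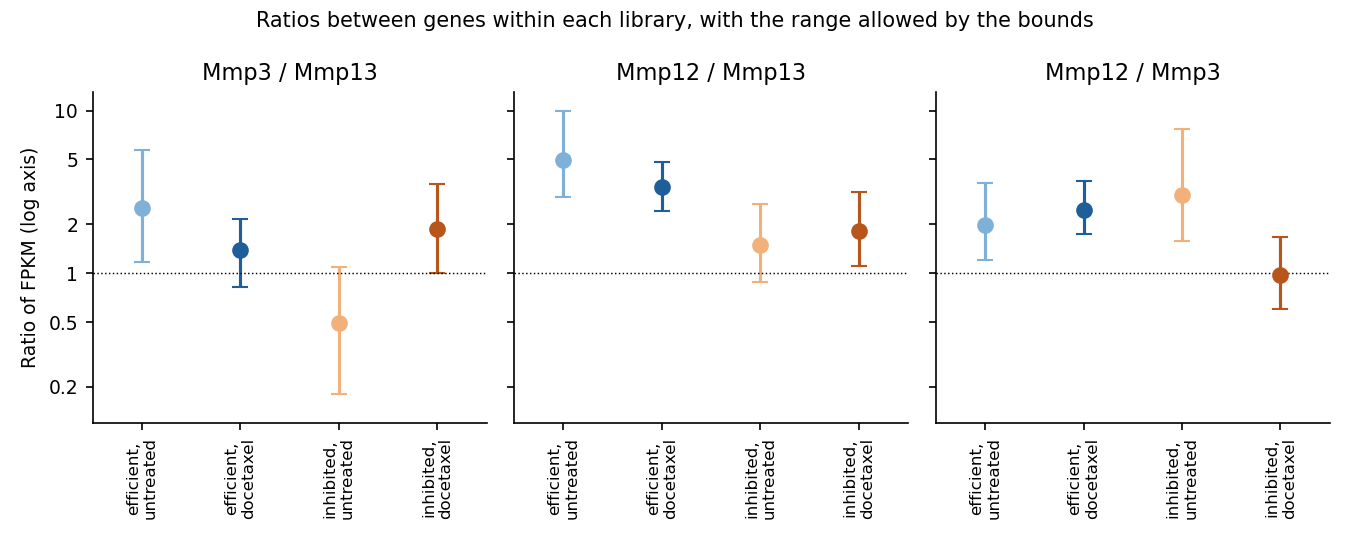
Ratios of FPKM between Mmp3, Mmp12 and Mmp13 within each library (logarithmic axis), with bars spanning the range that the deposited bounds allow. The ratio of Mmp3 to Mmp13 is lowest in the inhibited untreated library at 0.491, and the ratio of Mmp12 to Mmp3 is lowest in the inhibited docetaxel library at 0.975.

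The docetaxel differences in efficient and inhibited grafts were set against each other gene by gene. The difference in inhibited grafts minus that in efficient grafts was 1.41 on the log2 scale for Mmp3, -1.29 for Mmp13 and -0.48 for Mmp12. The deposited bounds of the 4 libraries together allowed -0.52 to 3.66 for Mmp3, -3.18 to 0.47 for Mmp13 and -1.496 to 0.58 for Mmp12, so each range included 0. Values of this size were common among loci that reached 5 FPKM in at least 1 library. That set holds loci listed at 0 in other libraries, whereas Mmp3 and Mmp13 were at 17.7 FPKM or more in every library. A set measured as well as these genes was not examined. Of 775 loci that reached 5 FPKM somewhere among the 4 libraries, 27.6% were at least as far from 0 as Mmp3 and 30.6% at least as far as Mmp13. Mmp10 was at 1.501 and Mmp8 at 0.46, with ranges of -4.71 to 6.28 and -3.97 to 4.61.

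The loci with the most similar pattern were sought among 323 loci at 5 FPKM or more in all 4 libraries, by the distance between values of log2(FPKM + 1) centred on their mean over the 4 libraries. The nearest to Mmp12 was Atp6v0d2, a subunit gene of the proton pump of acidic organelles, at a distance of 0.14, followed by Sepp1, which encodes a secreted selenoprotein, at 0.25 and Pfkp, a phosphofructokinase gene, at 0.47. The median distance to Mmp12 was 1.30. Atp6v0d2 was at 12.99, 29.0, 6.80 and 12.99 FPKM in the order efficient untreated, efficient docetaxel, inhibited untreated and inhibited docetaxel. The nearest to Mmp13 were Cnn2, a calponin gene (0.31), Tut1 (0.39) and Xbp1, a transcription factor gene of the unfolded protein response (0.41), with a median of 1.32. The nearest to Mmp3 lay farther away, namely the small GTPase gene Arf5 (0.68), the collectin gene Colec12 (0.87) and Wibg (0.88), with a median of 1.70. The genes of the cluster were not among the 3 nearest of each other: Mmp12 ranked 31st of 323 in likeness to Mmp3, and Mmp3 ranked 137th in likeness to Mmp12 and 269th in likeness to Mmp13. With 4 libraries such distances describe these libraries and nothing more.

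**Figure D5:**
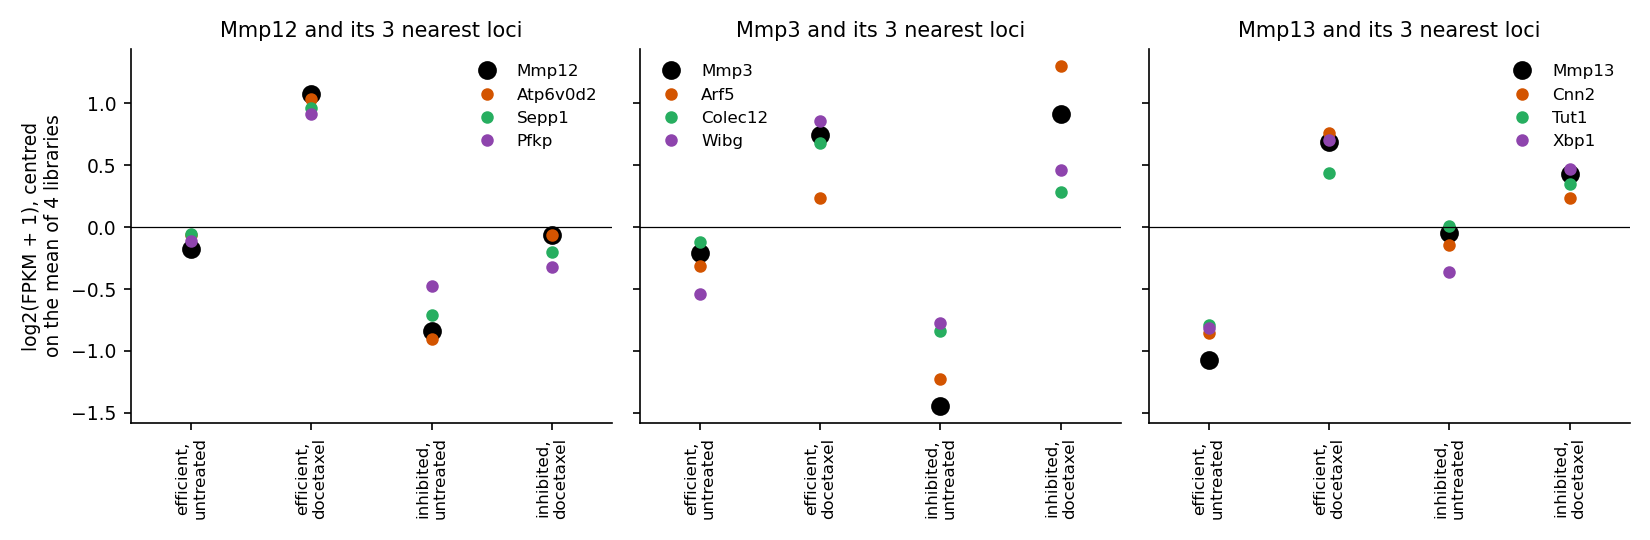
Values of log2(FPKM + 1), centred on the mean of the 4 libraries, for Mmp12, Mmp3 and Mmp13 (black) and the 3 loci nearest to each (colours). Atp6v0d2 lies within a distance of 0.14 of Mmp12 over the 4 libraries, whereas the nearest locus to Mmp3, Arf5, is at 0.68.

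Most other genes of the protease system could not be read. Of 13 metalloprotease genes on other chromosomes, 4 were above 0 in at least 1 library (Mmp25, Mmp16, Mmp17 and Mmp15) and none exceeded 1.43 FPKM. All 6 inhibitor genes listed, the 4 Timp genes, Reck and A2m, were at 0 in all 4 libraries. Of 13 further matrix proteases, 3 were above 0, with the lysosomal protease gene Ctsb at 1.66 to 2.63 FPKM. None of these lists had a locus at the 5 FPKM needed for a comparison.

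Among 14 substrate genes, 5 were above 0 and 3 were compared, none of them called in any of the 4 comparisons. These were Col1a2, a chain of the fibrillar collagen that Mmp13 and Mmp8 cut, at 369, 515, 371 and 579 FPKM in the order of libraries given above, and the basement membrane collagen genes Col4a1 (26.7 to 48.9 FPKM) and Col4a2 (14.7 to 21.4 FPKM). Of 15 transcription factor genes known to act on metalloprotease promoters, 5 were above 0 and 2 were compared without a call: Rela, a subunit of the factor NF-kB, at 19.9, 19.96, 8.92 and 14.3 FPKM, and the AP-1 subunit gene Jund at 1.49, 5.66, 5.01 and 5.58. Of 13 cytokine and receptor genes known to induce metalloproteases, only Osm was above 0, at 0.897 to 3.94 FPKM.

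The cell types that usually make these enzymes could hardly be followed. In bulk tissue fewer cells of a type and less RNA per cell cannot be told apart. Of the 12 macrophage markers that the tables list, Mpeg1 and Mrc1 were above 0, with a summed level of 2.03 to 3.76 FPKM. Mpeg1 was at 3.37, 2.91, 2.16 and 1.45 FPKM with overlapping bounds, and Cd68, Csf1r and Itgam were listed at 0. Of 9 neutrophil markers in the tables Camp alone was above 0, in 1 library. Of 10 fibroblast markers 3 were above 0, with Col1a2 making up nearly the whole of a summed level of 369 to 579 FPKM and Pdgfra, Dcn and Lum listed at 0. Of 6 endothelial markers 2 were above 0 (summed level 0.734 to 3.30 FPKM) and of 6 lymphocyte markers 1, while all 6 keratinocyte and all 5 skeletal muscle markers were listed at 0.

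Blood markers were called in each of the comparisons, and a fat marker only in those that involve the efficient docetaxel library. With docetaxel in inhibited grafts a blood marker was called lower while Mmp3 was called higher. The summed level of 3 alpha globin entries, of which Hba-a2 overlaps 1 entry of Hba-a1, was 207 FPKM in the efficient untreated library, 1766 in the efficient docetaxel library, 935 in the inhibited untreated library and 427 in the inhibited docetaxel library. All 3 entries were called higher with docetaxel in efficient grafts and lower with inhibition under docetaxel. Both calls of Hba-a2 were against a listed 0. An entry of Hba-a1 was called higher with inhibition untreated and lower with docetaxel in inhibited grafts. The summed adipocyte markers, mostly Retn, were at 10.5 and 419 FPKM in the efficient untreated and docetaxel libraries and listed at 0 in both inhibited libraries, and Retn was called higher with docetaxel in efficient grafts and lower with inhibition under docetaxel. Of 5 epithelial markers, read at mouse loci and so not a direct measure of the human graft, Cldn4 alone was above 0. It was at 5.71 FPKM in the efficient docetaxel library. Cldn4 was called in the same comparisons and directions as Retn, against a listed 0. The keratin genes Krt8, Krt18 and Krt19 were listed at 0. The part of these markers in the values of Mmp12, Mmp13 and Mmp3 was not tested.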

How the data were processed

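Values were taken from the gene tables of 4 libraries. The submitters' processing notes name mouse build mm9, TopHat and Cufflinks, without versions. Per the file headers, each locus has an FPKM with 2 bounds and a status. Per the labels' protocols, ribosomal RNA was removed, or messenger RNA purified, before sequencing on a MiSeq. No step that separates human from mouse fragments is recorded, and its effect on these values was not tested. Start positions were raised by 1.

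The call rule was applied to all loci. Ranges of differences combine the extreme bounds. Neighbours were loci of the same chromosome within 10 Mb. Relative depth is the most frequent ratio of values whose lower bound was 0, shared within 1% by 195, 276 and 233 loci for the efficient docetaxel, inhibited untreated and inhibited docetaxel libraries. The fragment number of a library was not given in the files.

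Genes named were the 5 genes, the rest of the cluster, up to 4 members above 0 of each list, and the 3 nearest in pattern among loci spanning 500 bp or more, without clone names, predicted genes and short RNAs. Flanking genes, markers listed at 0 and neighbours were named after their values were seen. The genes and lists were chosen with earlier results of these data known. Alternatives were pseudocounts of 0.1 and 5, median, quantile and neighbour scaling, other minimum FPKM and fold thresholds, and no interval criterion. Python 3.11.15, numpy 2.4.6, pandas 2.3.3 and matplotlib 3.10.9 were used. Mouse sequences were not used here, and 1 further gene list is not reported here.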

Additional observations from a re-analysis of the deposited data

Results flagged for a closer look

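Genes whose difference had opposite signs in the paired contrasts are given here, and the difference between the contrasts was not tested, since each condition was 1 library. The inhibited-minus-efficient difference of Mmp13 was 1.02 untreated and -0.26 under docetaxel, a difference of -1.29 on the log2 scale. That of Mmp3 was -1.24 untreated and 0.17 under docetaxel, a difference of 1.41. Mmp10 differed in sign in both contrasts (docetaxel -0.50 in efficient and 1.00 in inhibited grafts, inhibition -0.79 untreated and 0.71 under docetaxel), a difference of 1.501 that rests on 2 to 5 steps per library. The docetaxel difference of Mmp8 was -0.17 in efficient and 0.29 in inhibited grafts, a difference of 0.46, although its depth-corrected values were 1 step in each efficient and 2 steps in each inhibited library.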

How the results depend on the processing

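With docetaxel in efficient grafts, 2 genes were called as deposited, 1 (Mmp13) after median scaling, after quantile normalization or with a 3-fold threshold, and 0 after neighbour scaling. With docetaxel in inhibited grafts 1 was called (Mmp3), and 2 with a 1.5-fold threshold, which also gave 3 for docetaxel in efficient grafts (Mmp3 added) and 3 for inhibition without treatment (Mmp12 added as lower). For inhibition without treatment, 2 were called as deposited, 1 with a pseudocount of 5 (Mmp3) or after neighbour scaling (Mmp13), and 0 with a 3-fold threshold. For inhibition under docetaxel, 1 was called (Mmp12), and 0 after quantile normalization, after neighbour scaling or with a 3-fold threshold. The stricter threshold asks for more by construction, and the cause of the other changes was not tested. Of 100 differences recomputed with another pseudocount or scaling, 95 stayed within what the deposited bounds allow, 5 did not, and none that was called changed sign. This share is no measure of robustness. The bounds of Mmp8 and Mmp10 are too wide for their differences to leave easily, and bounds on counting do not cover scaling. Those outside were all of Mmp12, Mmp13 or Mmp3, after neighbour scaling or quantile normalization. The median of all loci compared moved by -0.28 for docetaxel in efficient and -0.30 in inhibited grafts after median scaling. It moved by -1.03 and -0.16 after neighbour scaling, which rested on 11 and 7 loci. Some of these loci entered through 1 library of the comparison alone, which shifts the neighbour scaling by construction. No paired analysis was possible because each group holds 1 library. Depth limits Mmp8 and Mmp10, which were at 5 steps or fewer.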
